A study of Drosophila melanogaster and Drosophila simulans and Drosophila erecta with 10 samples.

Results

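The transcripts of the unmutated adult testis of Drosophila melanogaster were ranked from the most abundant down. The data were the 2 control RNA-seq libraries, of 10 libraries in the series. Flies were 3 to 5 days old, were kept at 25 °C and carried the genotype given only as control, with no strain or allele named. The remaining 8 libraries (miR-983 knockouts of the same species, the D. simulans libraries and small RNA libraries of other species) were not used. The series' design text calls the 2 libraries biological replicates, and nothing says how many animals gave each of them. Both libraries give a value for 7326 genes. A level here is the mean of the 2 deposited log2 values, so a difference of 1 is a 2-fold difference. The SD over the 2 libraries is given as the error (n = 2).

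The fly testis is a tube in which germline stem cells at the tip give rise to spermatogonia, spermatocytes and spermatids in order along its length, each cyst wrapped by somatic cells. Spermatocytes transcribe most of the genes used later, under the testis meiotic arrest complex and the testis-specific TAFs, and store many of the messages until the haploid spermatids need them. Spermatids then build a very long tail around an axoneme and 2 mitochondrial derivatives, and replace their histones with protamine-like proteins. In whole testes a message from fewer cells of a type cannot be told apart from less of that RNA per cell.

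The most abundant transcripts included messages for sperm tail proteins, transcripts of the mitochondrial genome and many genes known only by a number. CG18628, a protein-coding gene without a given name, stood first with log2 values of 12.38 and 12.38 in replicates 1 and 2. The mitochondrial large ribosomal RNA mt:lrRNA followed with 12.04 and 12.22. The third, CG31740, stood at 10.51 and 10.66, below both by more than the difference between the libraries. The first gene was thus 566-fold above the median gene, whose log2 value was 3.23.

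S-Lap1, the leading member of the sperm leucylaminopeptidases, which are among the main proteins of mature sperm, ranked 4 with log2 values of 10.51 and 10.48. CG4836 had 10.50 and 10.39, and CG31226 had 10.33 and 10.52. Their values interleave, and the order of these 3 genes is not fixed by 2 libraries. Of the 30 neighbouring pairs from rank 1 to rank 31, 23 had values that overlapped between the neighbours. The rank of a gene inside this group is therefore a position within a band.

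Ranks 7 to 13 were CG12860, CG33340, CG8701, CG12699, CG10252, scpr-C and CG34168, with log2 values between 10.06 and 10.33 over both libraries. Of these, scpr-C has a name beyond its number and belongs to a family of secreted SCP-domain proteins. Ranks 14 to 20 joined mitochondrial and sperm tail messages. The cytochrome oxidase subunit mt:CoIII had 10.09 and 10.15, and mt:CoI had 10.04 and 10.07. The leucylaminopeptidase loopin-1, found with the mitochondrial derivatives of the tail, had 10.10 and 10.06. Mst84Dc, a cysteine-rich sperm tail protein, had 9.98 and 10.12. The janus family gene ocn had 9.95 and 10.14, and the unnamed CG31820 and CG12861 made up the rest of these ranks.

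Ranks 21 to 30 held S-Lap7 (9.94 and 9.91), CG17376, CG2127, CG5089, scpr-A (9.67 and 9.80), Mst84Da (9.60 and 9.84), CG46059, Mst87F (9.63 and 9.80), CG15219 and S-Lap4 (9.66 and 9.64). Every log2 value in these ranks was between 9.59 and 9.99. Of the 30 highest genes, 17 have only a CG number, 3 are encoded by the mitochondrial genome and 0 by the X chromosome.

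**Figure D1:**
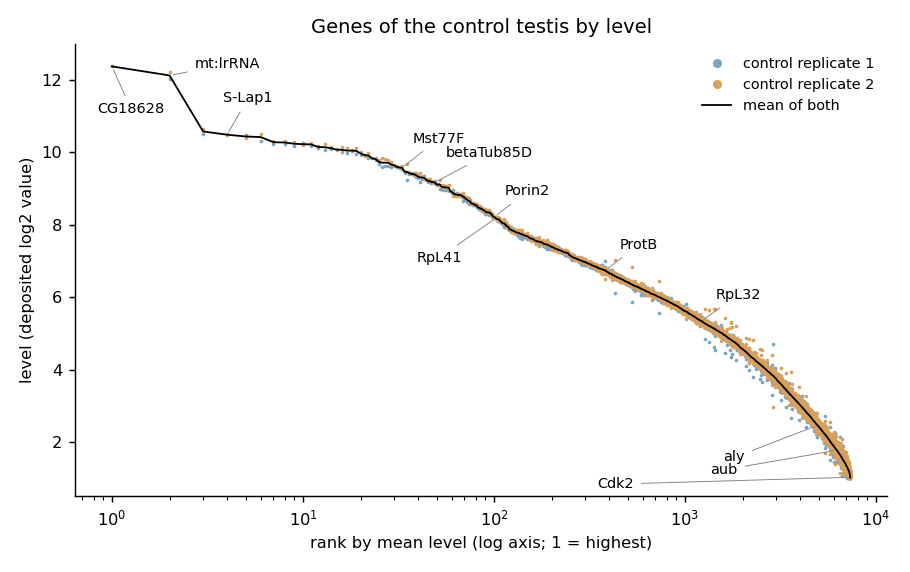
Level of each of the 7326 genes (deposited log2 value, vertical axis) against its rank (log axis), with a point per library and a line for the mean of both. CG18628 and mt:lrRNA stand apart at the top, after which the curve falls without a step from 10.58 at rank 3 to 1.01 at the last rank.

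Expression was spread over many genes below this top. Means above 10 were found for 19 genes, above 8 for 115, above 6 for 737 and above 4 for 2654. The quartiles of the levels were 2.16 and 4.74 on the log2 scale. At the median stood Lk6, a protein kinase, with a mean of 3.24 ± 0.09 (SD, n = 2), Vps24, an ESCRT-III subunit, with 3.19 and 3.28, and ND-51, a subunit of respiratory complex I, with 3.31 and 3.16. The 5 lowest genes were CG7791, CG7376, the cell cycle kinase gene Cdk2, CG18809 and Lsm12a, and each had values between 1.00 and 1.04. Every value in both libraries was above 1, so the list ends at a minimum, and a gene outside the list is one not analysed here, not one shown to be silent.

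The linear values, 2 to the power of the log2 value, give the share of the listed expression that the top genes held. The first gene held 2.26% of the summed linear values in replicate 1 and 2.20% in replicate 2. The top 10 held 8.46% and 8.67%, the top 30 held 16.5% and 17.1%, and the top 100 held 30.4% and 31.2%. The top 1000 held 67.3% and 68.0%. Whether the values are scaled to transcript length is not given, so these shares and the order of genes of different length are those of the deposited values. Level and annotated gene span were negatively correlated across genes (Spearman's rho −0.24, 7192 genes with a span), a description over genes that share both libraries.

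Among the 100 highest genes, 92 were protein coding, 3 were lncRNAs, 1 was an antisense RNA, 5 came from the mitochondrial genome and 3 identifiers had no symbol. CG numbers were the only names of 58 of the 100, against 2829 of all 7326 genes. The gene lists used here hold mostly named genes: 2821 of those 2829 are in no list, and 0 of the 58 are in any. Neighbours on the chromosome were common: of the 97 genes that could be placed, 32 lay next to another gene of the top 100, in 14 groups. In ranks 101 to 200 it was 15 of 99 placed genes. The longest group was Mst84Da, Mst84Db, Mst84Dc and Mst84Dd, 4 adjacent genes of sperm tail proteins on arm 3R, with means from 9.31 to 10.05. CG18449, CG2127 and CG8701 on arm 2R formed a group of 3 with means from 9.31 to 10.24. Smaller groups joined ocn with janB, Mst98Ca with Mst98Cb, S-Lap1 with S-Lap2 and CG12860 with CG12861.

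Some neighbours are not separate measurements. In all, 219 genes in 106 sets had values identical to those of another gene in both libraries, and the members of 103 sets have the same annotated span. The top 100 holds 5 such sets, or 10 genes, for example CG13245 with CG43816 and CG12902 with CG43397. All 10 genes are among the 32 counted above as neighbours. Ranks 101 to 200 hold such sets as well, for example hubl with spaw. The spans of 45 of the top 100 genes overlap that of another annotated gene. How reads in overlaps, on either strand or in near-identical copies were counted is not given, so the split between such genes is uncertain.

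The listed sperm tail genes were high as a group, in a list chosen with earlier results of these data known. The list also holds genes such as janA and gdl, whose place in the tail was not checked here. Of the 17 genes in the list of outer fibre and tail proteins, 16 were measured, all 16 were in the top decile (the 732 highest genes) and their median level was 9.32, against 3.23 over all genes. The name of the remaining member, don, matched no symbol. The list shares loopin-1 with the leucylaminopeptidases and boly and hale with the comet and cup genes, so the values of these lists are not separate. Mst98Ca had log2 values of 9.58 and 9.59. The gene dj, whose product lies along the sperm tail, had 9.30 and 9.37. The lowest member, hale, had 6.23 and 6.12. The whole list held 3.69% and 3.96% of the summed linear values, more than the 88 ribosomal protein genes together (1.63% and 1.66%). Values were higher in replicate 2 for 13 of the 16 genes, with the widest gap at Mst84Db (9.25 and 9.67). Over all genes, 3453 of 7326 were higher in replicate 2, against which this and later counts by replicate can be read.

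All 8 sperm leucylaminopeptidase genes were measured and all 8 were in the top decile, with a median level of 9.34. After S-Lap1, loopin-1, S-Lap7 and S-Lap4 came S-Lap2 with 9.07 and 9.01. S-Lap5 was the lowest of the family, with 6.26 and 6.06, so the means of the family ran from 6.16 to 10.49. Here 0 of 8 genes were higher in replicate 2. The family held 2.44% and 2.32% of the summed linear values.

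Among the 5 measured tubulin genes, betaTub85D, the beta-tubulin of the axoneme and the meiotic spindle in the male germline, had 9.22 and 9.12. The alpha-tubulin gene alphaTub84B had 9.14 and 9.10, which overlaps those values, and alphaTub84D had 6.97 and 6.94. The genes listed as axonemal and flagellar motors were lower: 17 of 24 were measured, 0 were in the top decile, and their median was 3.91. They include centriole genes such as asl, whose mean is this median. Rsph9, a radial spoke protein, led them with 5.88 and 5.92, followed by Tektin-C (5.86 and 5.84), Tektin-A (5.83 and 5.75), Rsph1 (5.65 and 5.66) and Sdic1 (4.79 and 4.67). Sdic1, Sdic2, Sdic3 and Sdic4 are near-identical copies, so their separate values are uncertain. The dynein and dynactin genes (14 of 16 measured, median 2.98) were led by the light chains robl62A, of the roadblock family (8.20 and 8.22), and Cdlc2 (7.29 and 7.24). Another light chain, ctp, had 2.29 and 2.15, below the median gene. Of the actins, Act42A had 7.25 and 7.22, and Act87E, which is also among the listed muscle markers, had 6.95 and 6.89. Act5C had 6.70 and 6.71, and the testis gene Arp53D had 6.04 and 6.06.

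Sperm chromatin genes covered a wide range. Of 15 listed, 14 were measured, with a median of 6.43, and 9 were in the top decile. Mst77F, a linker histone-like protein of the sperm nucleus, had 9.53 and 9.62. The HMG-box genes tHMG1 (7.77 and 7.87) and tHMG2 (7.69 and 7.87) and the transition protein gene Tpl94D (7.05 and 7.07) followed, with Mst33A at 7.39 and 7.38. The 2 protamine-like genes were not equal: ProtB had 6.66 and 6.82, and ProtA had 5.67 and 5.80. Their values do not overlap, but the genes are near-identical, so the split of their reads is uncertain. The histone variant genes His3.3A (5.38 and 5.38), His2Av (3.90 and 3.96) and His3.3B (3.87 and 3.83) were below every gene named here before them in this list.

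The comet and cup genes, which are transcribed after meiosis and whose messages gather at the tail ends of elongating spermatids, had 19 of 21 members measured. The names of the remaining members, schuma and ryder, matched no symbol. All 19 lay above the median gene, 11 were in the top decile, and their median was 6.18. w-cup stood apart with 9.43 and 9.37. hubl and spaw shared the same values (7.47 and 7.46) and are a set of identical entries. boly had 7.39 and 7.41, and soti, an inhibitor of the Cullin-3 ubiquitin ligase in spermatids, had 7.43 and 7.31. p-cup was the lowest, with 3.63 and 3.42.

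The transcriptional regulators of spermatocytes had moderate to low values. The meiotic arrest genes, which encode the testis meiotic arrest complex and the testis TAFs, had 13 of 14 members measured, a median of 3.43 and 0 in the top decile. The name of the remaining member, rye, matched no symbol. mip40, which is also part of a complex used in other tissues, led with 4.74 and 4.73, followed by vis (4.20 and 4.21) and the TAF sa (4.13 and 4.13). nht had 3.73 and 3.90, and achi had 3.74 and 3.76. The best known of them, aly, had 2.41 and 2.51, and comr was the lowest, with 1.57 and 1.37. The testis bromodomain coactivators tbrd-1 (5.00 and 5.06), tbrd-2 (4.22 and 4.30) and tbrd-3 (3.99 and 3.89) were all above the median gene.

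Genes of meiotic entry and division had a median of 4.13 over 13 of 16 members. fest, which restrains translation of cyclin B in spermatocytes, was the only one in the top decile, with 7.64 and 7.47. The kinase polo had 4.82 and 4.72, the phosphatase twe had 4.55 and 4.56, the cohesion protector mei-S332 had 4.57 and 4.46, and CycB had 4.52 and 4.45. The values of mei-S332 overlap those of both twe and CycB, so its place among them is not fixed.

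Genes of the early germline were low. Of 12 markers of stem cells and spermatogonia, 5 were measured: bgcn, a partner of bam, had 2.96 and 2.89, stai had 2.28 and 2.32, tut had 2.04 and 2.35, aub had 1.86 and 1.68, and vls had 1.51 and 1.61. All 5 were below the median gene. The markers vas, bam, piwi and zpg were not among the genes analysed here, and the name nos matched no symbol. Of all annotated protein-coding genes 46.5% were measured, so 5 of 12 is close to the general share. The small RNA pathway genes were low as well, with 18 of 30 measured and a median of 2.51. loqs, a double-stranded RNA-binding partner of Dicer, led with 5.24 and 5.03, followed by papi (4.26 and 4.17), squ (3.92 and 4.04), AGO2 (3.58 and 3.42) and tud (3.45 and 3.27), while AGO1 had 1.39 and 1.38.

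**Figure D2:**
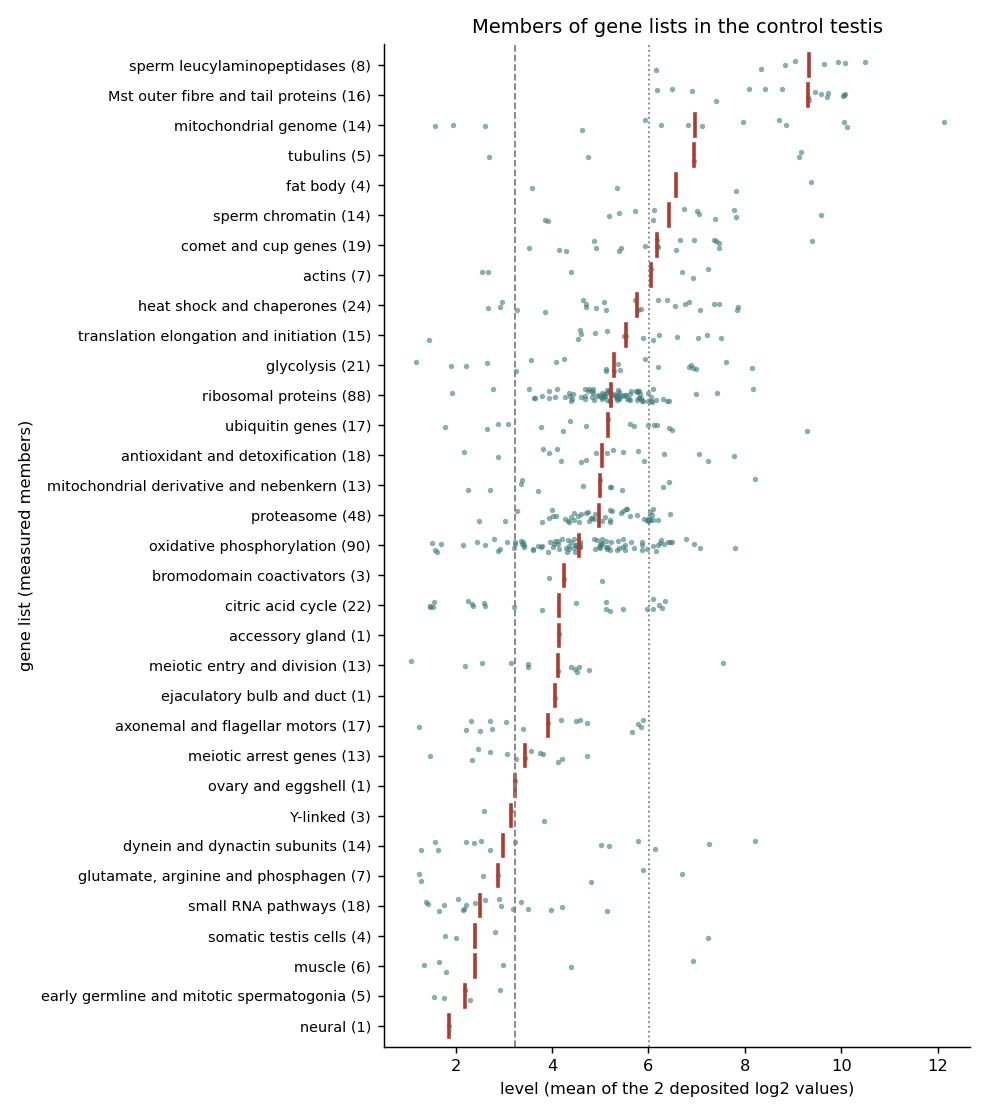
Level of each measured member of the gene lists (mean of the 2 deposited log2 values, 1 point per gene), with the number measured in parentheses and the list's median as a red bar. The dashed line is the median of all genes, 3.23, the dotted line is the lower bound of the top decile, and the leucylaminopeptidases and tail proteins lie wholly to the right of the dotted line.

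Some list medians moved by more than 1.5-fold when only genes that overlap no other annotated gene were kept. They were higher for the dynein and dynactin (4.13), axonemal (4.51), mitochondrial derivative (7.32) and somatic testis cell (4.51) lists. In the mitochondrial derivative list only Porin2 (mean 8.21) lies above its new median, and in the somatic list only MtnA (mean 7.24). Few members of these lists can thus have remained, and their medians hang on Porin2 and MtnA. They were lower for the meiotic entry (3.51), comet and cup (5.40), muscle (1.73) and fat body (5.34) lists.

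The mitochondrial genome was strongly represented, with 14 genes listed and a median of 6.97. Behind mt:lrRNA, mt:CoIII and mt:CoI came the cytochrome b gene mt:Cyt-b with 8.84 and 8.86 and mt:CoII with 8.63 and 8.78. The complex I genes ranged widely, from mt:ND1 (7.03 and 7.19) to mt:ND2 (2.53 and 2.69), mt:ND4L (1.75 and 2.13) and mt:ND6 (1.07 and 2.08). All 14 genes were higher in replicate 2. Together they held 3.33% and 3.55% of the summed linear values. The mitochondrial genome is compact with genes on both strands, and the strand of the reads is not given, so the values of its smaller genes are uncertain.

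Nuclear genes of oxidative phosphorylation had a median of 4.56 over 90 of 92 members, with 77 above the median gene and 13 in the top decile. The leading 4 were paralogs of cytochrome oxidase subunits: COX4L (7.76 and 7.82), COX7AL (7.05 and 7.11), COX6CL (6.93 and 6.97) and COX5BL (6.81 and 6.74). UQCR-C1, a core subunit of complex III, had 6.50 and 6.46. Genes of the mitochondrial derivative and its precursor, the nebenkern, had 13 of 14 members measured and a median of 5.00. Porin2, an outer membrane channel of sperm mitochondria, had 8.22 and 8.21. mge, an outer membrane import gene, had 6.39 and 6.47. Cyt-c-d, the cytochrome c that acts in caspase activation as spermatids individualize, had 6.28 and 6.31. fzo, the mitofusin that fuses mitochondria into the nebenkern, had 5.45 and 5.45, and the carrier gene Ant2 had 5.21 and 5.24.

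Glycolysis genes had 21 of 22 members measured and a median of 5.28, and 7 were in the top decile. Pglym87, a phosphoglycerate mutase, led with 8.12 and 8.18, and the hexokinase Hex-t2 had 7.57 and 7.64. The unnamed list members CG12229 and CG7069 had means of 6.99 and 6.93, and the aldolase-family gene Ald2 had 6.88 and 6.89. Citric acid cycle genes were lower, with a median of 4.14 over 22 of 23, led by CG10749 (6.34 and 6.35), ScsbetaA (6.29 and 6.29), Fum4 (6.25 and 6.19), mAcon2 (6.13 and 6.05) and SdhBL (6.19 and 5.98). Of the genes of glutamate, arginine and phosphagen metabolism, Argk2 had 6.69 and 6.69, Got1 had 5.89 and 5.88 and Got2 had 4.85 and 4.75, with a median of 2.89 over the 7 measured.

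Genes of protein making and turnover mostly lay above the median gene. Of 93 ribosomal protein genes 88 were measured, with a median of 5.23, 86 above the median gene and 11 in the top decile. RpL41, the shortest ribosomal protein, had 8.15 and 8.21. RpLP2 had 7.34 and 7.51, RpL10Aa had 6.89 and 7.09, RpS18 had 6.38 and 6.47, and RpL39 had 6.39 and 6.39. Values were higher in replicate 2 for 67 of the 88. All 48 proteasome genes were measured, with a median of 4.97, 46 of them above the median gene and 9 in the top decile, led by Prosbeta3 (6.43 and 6.49) and Prosbeta1 (6.16 and 6.25). In the translation factor list (15 of 18 measured, median 5.54, 6 in the top decile) the leading genes were the cap-binding proteins eIF4E5 (7.50 and 7.51), eIF4E4 (7.22 and 7.21) and eIF4E3 (7.02 and 7.03), the last needed for male meiosis and spermatid development. pAbp had 6.65 and 6.55, and eEF2 had 6.22 and 6.22.

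Among ubiquitin genes (17 of 17 measured, median 5.15, 5 in the top decile), the polyubiquitin gene Ubi-p63E had 9.34 and 9.25. SkpF, a Skp1-family protein, had 6.43 and 6.55. Cul3, the cullin of the spermatid ligase, had 6.47 and 6.40. Chaperones had a median of 5.75 over 24 of 25 members, with 10 in the top decile. Hsp83, the fly Hsp90, had 7.93 and 7.81, Hsp60B, a testis chaperonin, had 7.85 and 7.82, Hsp26 had 7.47 and 7.47, Hsc70-4 had 7.44 and 7.29, and Hsc70-2 had 7.11 and 7.04. In the antioxidant list (18 of 23, median 5.03), TrxT, a testis thioredoxin encoded on the X chromosome, led with 7.79 and 7.77, ahead of the metallothionein MtnA (7.17 and 7.31), GstS1 (7.04 and 7.05), GstD1 (6.31 and 6.32) and Prx6c (5.89 and 5.94).

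Many genes of these machineries have a paralog that is known from the testis, and the 2 members of a pair could be compared within each library. Of 70 pairs listed, 60 had both members measured. The first member, in most pairs the testis paralog, was higher in both libraries in 51 pairs, the second in 8, and the order differed between the libraries in 1 (mia and Taf6). The median difference was 1.19 on the log2 scale, and the first member was at least 4-fold higher in 19 pairs. The SD of a difference over the 2 libraries was at most 0.272. Pairs that share a second member are not independent, and the pairs were chosen with these levels known.

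The largest difference was between the phosphoglycerate mutases: Pglym87 stood 5.94 ± 0.04 (SD, n = 2) above Pglym78 on the log2 scale, the latter at 2.15 and 2.26. TrxT stood 5.60 ± 0.08 above the widely expressed thioredoxin Trx2 (2.14 and 2.23). eIF4G2 stood 4.44 ± 0.08 above eIF4G1, the general scaffold of translation initiation (mean 1.45). Hex-t2 stood 4.34 ± 0.27 above Hex-A, COX5BL 3.85 ± 0.11 above COX5B, and SkpF 3.84 ± 0.02 above SkpA. In all 6 pairs the 4 values of the members leave a wide gap.

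By family, all 15 oxidative phosphorylation pairs with both members measured had the first member higher in both libraries. Their differences ran from 0.10 to 3.85, with a median of 1.81. The smallest, SdhAL (5.24 and 5.19) over SdhA (5.19 and 5.03), had values that overlap between the members, so its order is not fixed. Of 14 listed proteasome pairs, 13 had the testis paralog higher, with a median difference of 0.87. The pair list left out Rpn13R (4.56 and 4.62), which was below Rpn13 (5.58 and 5.51) in both libraries. It also left out Prosalpha1R (5.24 and 5.26), which was slightly above Prosalpha1 (5.18 and 5.21). The ribosomal pairs were mixed: the first member was higher in 6 of 10 and the second in 4, with differences from −1.42 to 1.14. For ribosomal genes with close copies the split of reads is uncertain. The 6 largest differences in the other direction were Prosalpha3T below Prosalpha3 (−1.68 ± 0.08), RpS28a below RpS28b (−1.42), RpL34a below RpL34b (−1.02), ProtA below ProtB (−1.01), RpL24-like below RpL24 (−0.88) and SkpE below SkpA (−0.86). In 9 pairs 1 member was measured and the other was not among the genes analysed here. The first member was the measured one for betaTub85D (without betaTub56D), Cyt-c-d (without Cyt-c-p), RpS10a, UQCR-11L, can and aly. The second member was the measured one for the oxidative phosphorylation genes UQCR-C2 (without UQCR-C2L) and ND-23 (without ND-23L), and for Gs2 (without Gs1). These pairs are outside the counts above, and their unlisted members have no value here.

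**Figure D3:**
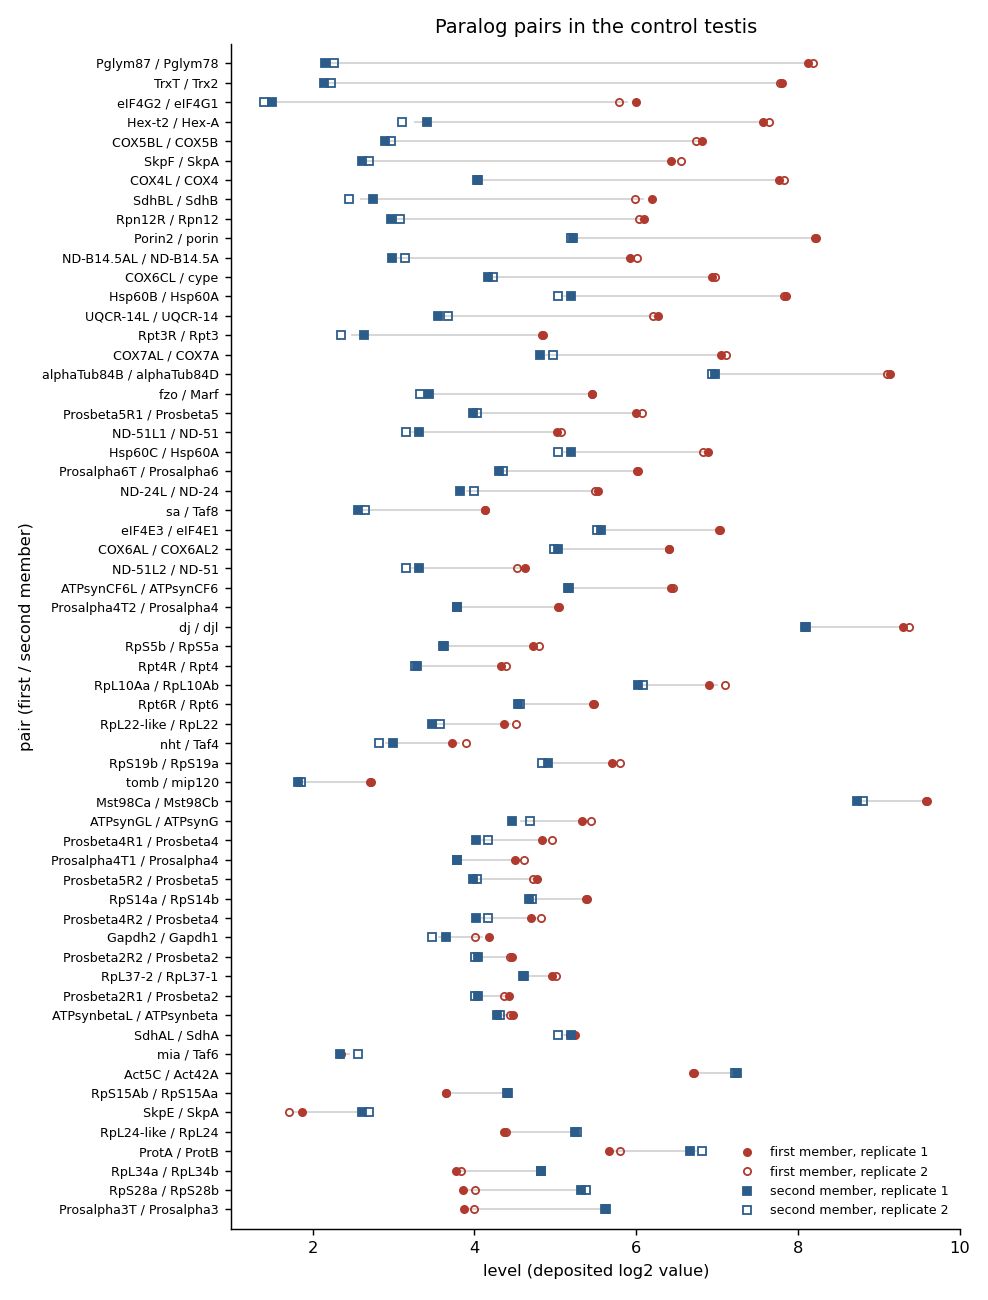
Deposited log2 values of both members of each of the 60 paralog pairs in replicate 1 (filled) and replicate 2 (open), red circles for the first member and blue squares for the second, ordered by the difference. The first member lies to the right in 51 pairs, from Pglym87 over Pglym78 (5.94) down, and the bottom 8 pairs have the opposite order.

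Few of the listed markers of tissues around the testis or of other organs were among the genes analysed here, and the levels of those that were varied widely. Of all annotated protein-coding genes 46.5% were measured, against which these and later counts of measured markers can be read. Of 30 accessory gland genes 1 was measured, Acp95EF with 4.16 and 4.12, and of 6 genes of the ejaculatory bulb and duct 1, EbpIII with 4.11 and 4.03. Of 21 haemocyte and antimicrobial genes 0 were measured. The names Peb (ejaculatory bulb list) and Dpt (haemocyte list) matched no symbol. Syx1A (2.03 and 1.70) was the only one of 13 neural genes, and the eggshell gene Cp15 (3.25 and 3.21) the only one of 13 ovary genes. Acp95EF and EbpIII lay above the median gene, and Syx1A and Cp15 below it. The unlisted markers have no value here and cannot be called silent.

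Muscle was represented by 6 of 21 genes, and all 6 were lower in replicate 2. Act87E had 6.95 and 6.89 and Act57B 4.60 and 4.19, and both are also in the list of actins. The myosin light chain Mlc2 had 3.10 and 2.85, Mlc1 1.88 and 1.73, and Mhc 1.87 and 1.43. The troponin T gene up had a mean of 1.35 ± 0.21 (SD, n = 2). The testis has a muscle sheath, and its share in the 2 libraries was not tested. Of 18 fat body genes 4 were measured: the odorant-binding protein genes Obp44a (9.33 and 9.42) and Obp99a (7.77 and 7.85), Tsf1 (5.39 and 5.29) and NLaz (3.62 and 3.57). The yolk protein genes Yp1, Yp2 and Yp3 were not among the genes analysed here.

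Of 15 markers of somatic testis cells (cyst, hub and pigment cells), 4 were measured. The metallothionein MtnA had 7.17 and 7.31, bnb 2.78 and 2.86, the cyst cell transcription factor so 1.93 and 2.06, and upd1, the ligand made by hub cells, 1.95 and 1.59. The cyst cell factors tj, zfh1 and eya were not among the genes analysed here. MtnA is also made in other tissues and marks no cell type of the testis by itself. The label testis is taken from the labels' protocols and was not tested with these markers.

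Genes of the X chromosome were scarce among the highest. Of the 6491 protein-coding genes measured, 916 were X-linked, or 14.1%. In the top decile of these protein-coding genes (649 genes, log2 means of 6.08 or more) 38 were X-linked, or 5.86%. Put the other way, 4.15% of the measured X-linked genes reached the top decile, against 10.1% to 11.9% of the genes on arms 2L, 2R, 3L and 3R. The median level was 2.98 on the X chromosome and between 3.23 and 3.50 on those arms. Over genes of every class, the X-linked share was 7.38% in the highest decile, 11.3% in the second and 19.2% in the lowest. The only X-linked protein-coding gene of the top 100 was CG1394, with 8.76 and 8.85.

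The table holds 41.8% of the annotated protein-coding genes of the X chromosome and 46.9% to 48.6% of those on the 4 large autosome arms. Chromosome 4 was lower still, with 29 genes of 80, a median of 2.15 and 0 in the top decile. RpS3A (5.76 and 5.84) was its highest gene. On the Y chromosome, 6 of 24 annotated protein-coding genes were measured. CG45764 had 7.20 and 7.20, CG45765 had 6.69 and 6.71, and Mst77Y-4, one of the Y-linked copies related to Mst77F, had 5.35 and 5.46. The split of reads between such copies and Mst77F is uncertain. ARY had 3.84 and 3.85, Pp1-Y2 3.14 and 3.16, and FDY 2.66 and 2.51. The dynein fertility genes kl-2, kl-3 and kl-5 were not among the genes analysed here.

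Transcripts that encode no protein were numerous at low levels. Of 1996 annotated lncRNAs 359 were measured, with a median of 2.45 against 3.32 for protein-coding genes. They made up 8.88% of the lowest decile of genes, 0.682% of the second and 1.91% of the highest. The 14 in the highest decile were led by lncRNA:CR9284 with 9.59 and 9.61, rank 31 of all genes. The next 4 were all X-linked: lncRNA:CR32652 (8.82 and 8.82), lncRNA:CR32658 (8.49 and 8.58), lncRNA:CR32661 (8.02 and 8.08) and lncRNA:CR32657 (mean 7.94 ± 0.09). With CG1394, 2 of these lncRNAs made up the 3 X-linked genes of the top 100.

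Of 503 annotated antisense RNAs 246 were measured, with a median of 2.78. asRNA:CR45162 led with 8.31 and 8.33, then asRNA:CR43885 with 7.52 and 7.56, asRNA:CR44370 with 6.75 and 6.56, asRNA:CR42871 with 6.43 and 6.44 and asRNA:CR46054 with 5.97 and 6.10. All 246 overlap another annotated gene, and since no strand is given their reads and those of the partner cannot be told apart. asRNA:CR45162 lies next to CG9389, whose mean of 8.29 is close to its own 8.32. Pseudogenes (47 of 311 annotated) were led by CR43975 with 5.48 and 5.69 and Mst77Y-16Psi with 5.15 and 5.32, the latter with the same uncertainty as Mst77Y-4. The 9 miRNA entries, led by mir-2280 with 5.62 and 5.84, all overlap other genes and are not counts of mature miRNAs.

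**Figure D4:**
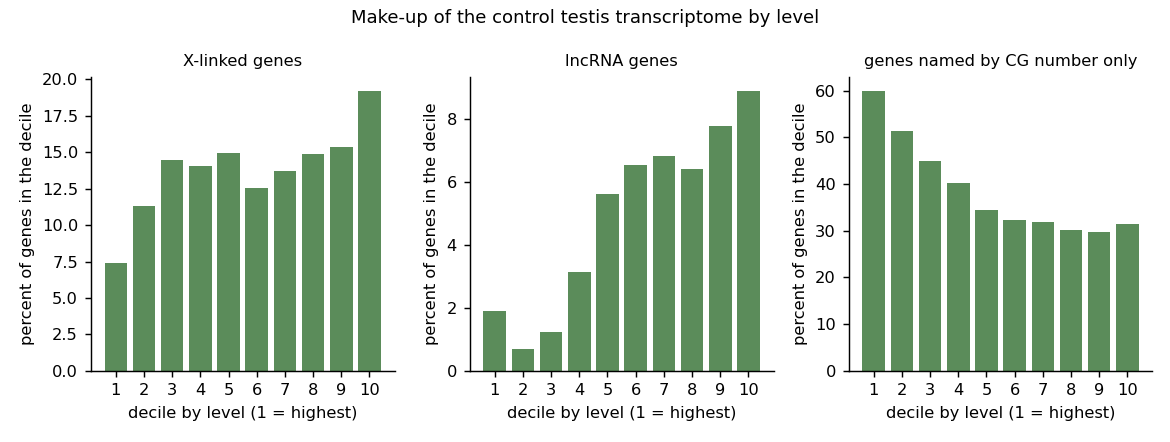
Percent of genes that are X-linked, lncRNAs or named by a CG number only (vertical axes) in each decile of genes by level, from the highest (1) to the lowest (10). The X-linked share is 7.38% in the highest decile and 19.2% in the lowest, lncRNAs reach 8.88% in the lowest, and CG-number genes fall from 59.9% to about 30%.

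Genes with only a CG number were the largest part of the upper range. They made up 59.9% of the highest decile, 51.4% of the second and 44.9% of the third, and between 29.7% and 31.4% of the lowest 3 deciles. Annotated spans were short among high genes: the median span was 1114 bases in the top 100, and by decile of level it was 1216 bases in the highest and 2629 bases in the lowest.

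The 2 libraries gave nearly the same levels. Across the 7326 genes, Pearson's r was 0.996 and Spearman's rho 0.994, a description over genes that share the 2 libraries. The median of replicate 2 minus replicate 1 was −0.01 on the log2 scale, and the median absolute difference was 0.08. The SD of the differences was 0.15, which corresponds to 0.11 for a single library. The 2 values lay within 0.25 of each other for 92.8% of genes and within 0.5 for 99.1%. Shared between the libraries were 9 of the top 10 genes, 29 of the top 30, 98 of the top 100 and 971 of the top 1000.

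Agreement was closer for high genes. The median absolute difference was 0.06 in the highest decile and 0.11 and 0.10 in the lowest 2 deciles. The differences also moved with gene span: from the shortest to the longest decile, the median of replicate 2 minus replicate 1 went from 0.09 through 0.00 in the fifth decile to −0.08 in the ninth and −0.07 in the longest. Values of short genes were thus slightly higher in replicate 2 and those of long genes slightly lower. The replicate shifts of the short Mst and ribosomal genes above stand beside this trend, and the part of span in them was not tested.

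A difference above 1 on the log2 scale was found for 9 genes and above 0.5 for 65. The widest was Cyp4g1, a cytochrome P450 of the hydrocarbon-producing oenocytes, with 4.69 in replicate 1 and 2.97 in replicate 2. Next by symbol came the ribosomal RNA pseudogenes 28SrRNA-Psi:CR45860 (4.55 and 5.68) and 28SrRNA-Psi:CR41609 (4.61 and 5.67), a small noncoding RNA (2.73 and 1.70), mt:ND6 (1.07 and 2.08) and lncRNA:CR43414 (2.13 and 1.14). The other 4 of the 10 widest differences belong to identifiers without a symbol, all higher in replicate 2. Of 16 entries for nuclear ribosomal RNA, its precursors or its pseudogenes, 16 were higher in replicate 2, by 0.42 to 1.13 with a median of 0.87. These entries held 0.0789% of the summed linear values in replicate 1 and 0.144% in replicate 2. The alcohol dehydrogenase gene Adh, named after its values were seen, had 2.26 and 1.38, values shared with Adhr, which has the same annotated span, so they are not separate for Adh.

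**Figure D5:**
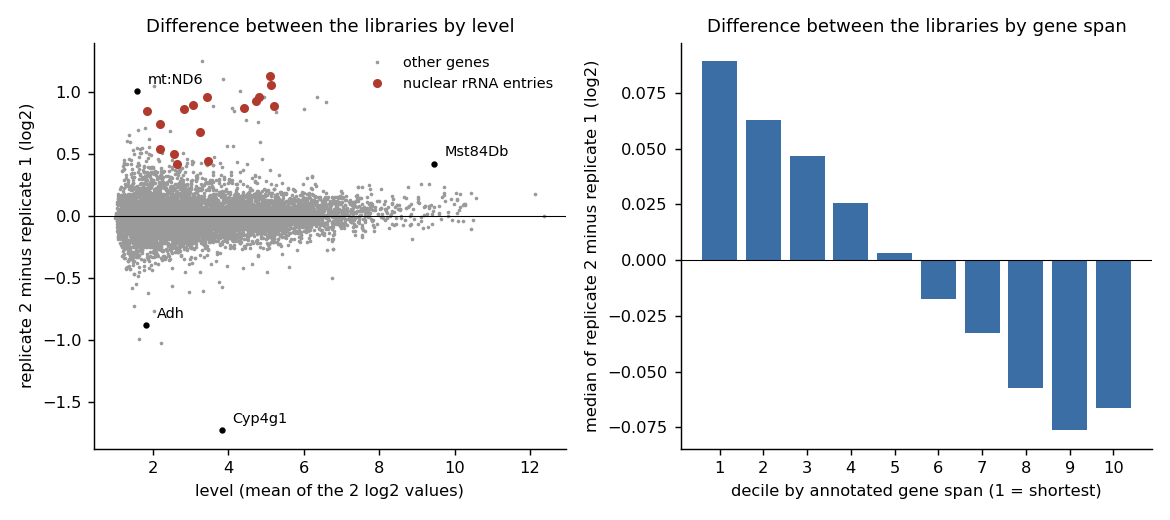
Left, replicate 2 minus replicate 1 (log2, vertical axis) against level for every gene, with the 16 nuclear ribosomal RNA entries in red and 4 genes named. Right, the median of that difference in deciles of genes by annotated span, which falls from 0.09 in the shortest decile to −0.08 in the ninth.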

How the data were processed

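RNA-seq was done on testes of control flies, with total RNA taken up in Trizol, per the labels' protocols. The authors deposited 1 log2 expression value per gene and library. Not given in the sources used here are which quantity was logged, whether a pseudocount was added, how libraries and gene lengths were scaled, the annotation, and how strand and reads of several sites were treated. TopHat, a spliced-read aligner, is named without a version in the submitters' processing notes. Read totals were not given, so the depth is unknown. No column was left unmapped (0 columns).

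Means, SDs, ranks, medians and shares were computed in Python 3.11.15 with pandas 2.3.3 and NumPy 2.4.6, and drawn with matplotlib 3.10.9. The calculations were checked on simulated data. No test was made, since there is 1 group of 2 libraries. Of the identifiers, 7195 of 7326 matched a symbol. Gene class, chromosome arm, span, order and overlap came from RefSeq's table for assembly Release 6 plus ISO1 MT. The annotation behind the values may differ from it, and span is the whole gene with introns, not transcript length.

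Gene lists (33, beside all listed genes of the mitochondrial genome) and paralog pairs were chosen with earlier results of these data known. Some genes belong to several lists. The list names rye, nos, mnm, don, schuma, ryder, Peb and Dpt matched no symbol. They stay among the listed members, but their levels were not looked up. Named were the 30 highest genes, up to 5 highest members of each list and of the larger noncoding classes, the 10 widest differences between libraries, marker lists with 6 or fewer measured members in full, the 6 widest pairs in each direction, and genes at the median and the end. Lowest members, highest genes by arm, other listed genes, Adh and neighbouring genes were named after their values were seen. Alternatives left out each library, normalized the libraries by quantiles, averaged linear values, or kept only genes that overlap no other. Leaving out ribosomal RNA entries, counting identical genes once and dividing by gene span were added after the data were examined. A planned search of promoters for motifs was not run, because no sequences were used here.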

Additional observations from a re-analysis of the deposited data

How the results depend on the processing

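Of 33 lists, 32 had a measured member and 23 a median above that of all genes, and 51 of 60 pairs had the first member higher. These counts moved to at most 24 and 53, and the correlation between libraries stayed between 0.99612 and 0.99659. Leaving out 1 library kept 98 to 99 of the top 100 genes, put 30.4% to 31.2% of the summed linear values in the top 100, gave 23 to 24 lists and 51 to 52 pairs, and gave an X-linked share of the top decile of 5.70% to 5.86%. With only genes that overlap no other annotated gene, 52 of the top 100 remained. Subtracting 1 from the linear values raised the share of the top 100 to 31.7%. Among genes without overlap, 24 of the 30 lists with a member left had a median above that of all genes, but not the same lists. The dynein and dynactin list (2.98 to 4.13) and the somatic testis cell list (2.41 to 4.51) crossed from below, and the accessory gland list had no member left. The somatic value hangs on MtnA, the only measured member above 4.51. In all, 9 list medians moved by over 0.5 on the log2 scale, the mitochondrial derivative list to 7.32 from 5.00. The causes were not tested, beyond the removal of genes by the overlap rule. Levels divided by gene span gave 53 pairs with the first member higher. No paired analysis was possible because there is 1 group and no test. The promoter motif alternatives were not run. Precision is limited by 2 libraries of unknown depth, and order between genes of different length by the unknown scaling.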

Other observations

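Outside the gene lists, 10 genes of the top 100 have a name other than a CG number. Besides the lncRNAs, asRNA:CR45162, scpr-A and scpr-C these were Jhbp5 (8.88 and 8.94), exu, a gene needed for RNA localization in the ovary and for spermatogenesis (8.69 and 8.66), salto (8.43 and 8.36) and Ppi1 (8.30 and 8.20). The values of each gene differed by less than 0.1 on the log2 scale between the libraries, except scpr-A (9.67 and 9.80).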
